A study of Mus musculus with 6 samples.

Results

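The mitochondrial ribosomal proteins were followed here as a gene family: every gene measured by a probe set of its own whose symbol is Mrpl or Mrps with a number. Of 78 such protein-coding genes in RefSeq, 77 were measured, 48 named for the large subunit and 29 for the small, among 19938 genes in all. Mrpl53 lay only on a probe set shared with another gene and was not measured. The study hybridised liver total RNA from male mice of the inbred C57BL/6 strain to 6 Affymetrix Mouse Gene 1.0 ST arrays, on which several short probes make up the probe set of a transcript. The mice were 6 weeks old in both groups and were acclimatised on chow for 1 week. The cholesterol group (arrays CH1 to CH3) received chow with 1% powdered cholesterol, and the other group (arrays LE1 to LE3) received chow with 100 mg lovastatin and 21 mg ezetimibe per 100 g. Lovastatin inhibits HMG-CoA reductase in cholesterol synthesis and ezetimibe blocks intestinal cholesterol uptake, so the comparison sets a cholesterol-supplying diet against a cholesterol-limiting one. The labels call the 3 arrays of each diet biological replicates, and how long the diets were fed is not given in the sources used here.

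Mitochondria translate the few proteins encoded by their own DNA, all of them subunits of the respiratory chain and ATP synthase, on a dedicated ribosome. Its RNAs come from mitochondrial DNA, but its proteins are encoded in the nucleus, made in the cytosol and imported. The small subunit reads the messenger RNA and the large subunit forms the peptide bond and passes the growing chain through an exit tunnel to the inner membrane. Some of the proteins descend from bacterial ribosomal proteins and others exist only in mitochondrial ribosomes. Liver is rich in mitochondria, and loss-of-function variants in several of these genes cause respiratory chain disease in humans.

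Most of the family differed little between the diets, and the gene that stood out was Mrps27. Differences are given as lovastatin/ezetimibe minus cholesterol on the log2(intensity + 1) scale, and a gene was said to have risen or fallen where limma's Benjamini-Hochberg adjusted p over all 19938 genes was below 0.05. By that rule 8 of the 77 members changed, or 10.4%, beside 12.1% of all genes tested. The 4 that rose were Mrps27, Mrpl41, Mrps36 and Mrpl23, beside 7.01% of all genes. The 4 that fell were Mrpl36, Mrpl27, Mrps28 and Mrps35, beside 5.08% of all genes. The share of the family that changed was thus near or below the share of all genes, in either direction. At an unadjusted p below 0.05 there were 15 members (19.5%), 7 higher and 8 lower, beside 24.8% of all genes. Only Mrps27 differed by at least 1.5-fold, the size that 2.21% of all genes reached. In 25 of 77 members (32.5%) the arrays of one diet did not overlap those of the other, beside 30.6% of all genes. Of these, 8 (10.4%) were higher, beside 15.9% of all genes, and 17 (22.1%) were lower, beside 14.7% of all genes, so non-overlapping members were more often lower than higher; this lean was not tested.

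**Figure D1:**
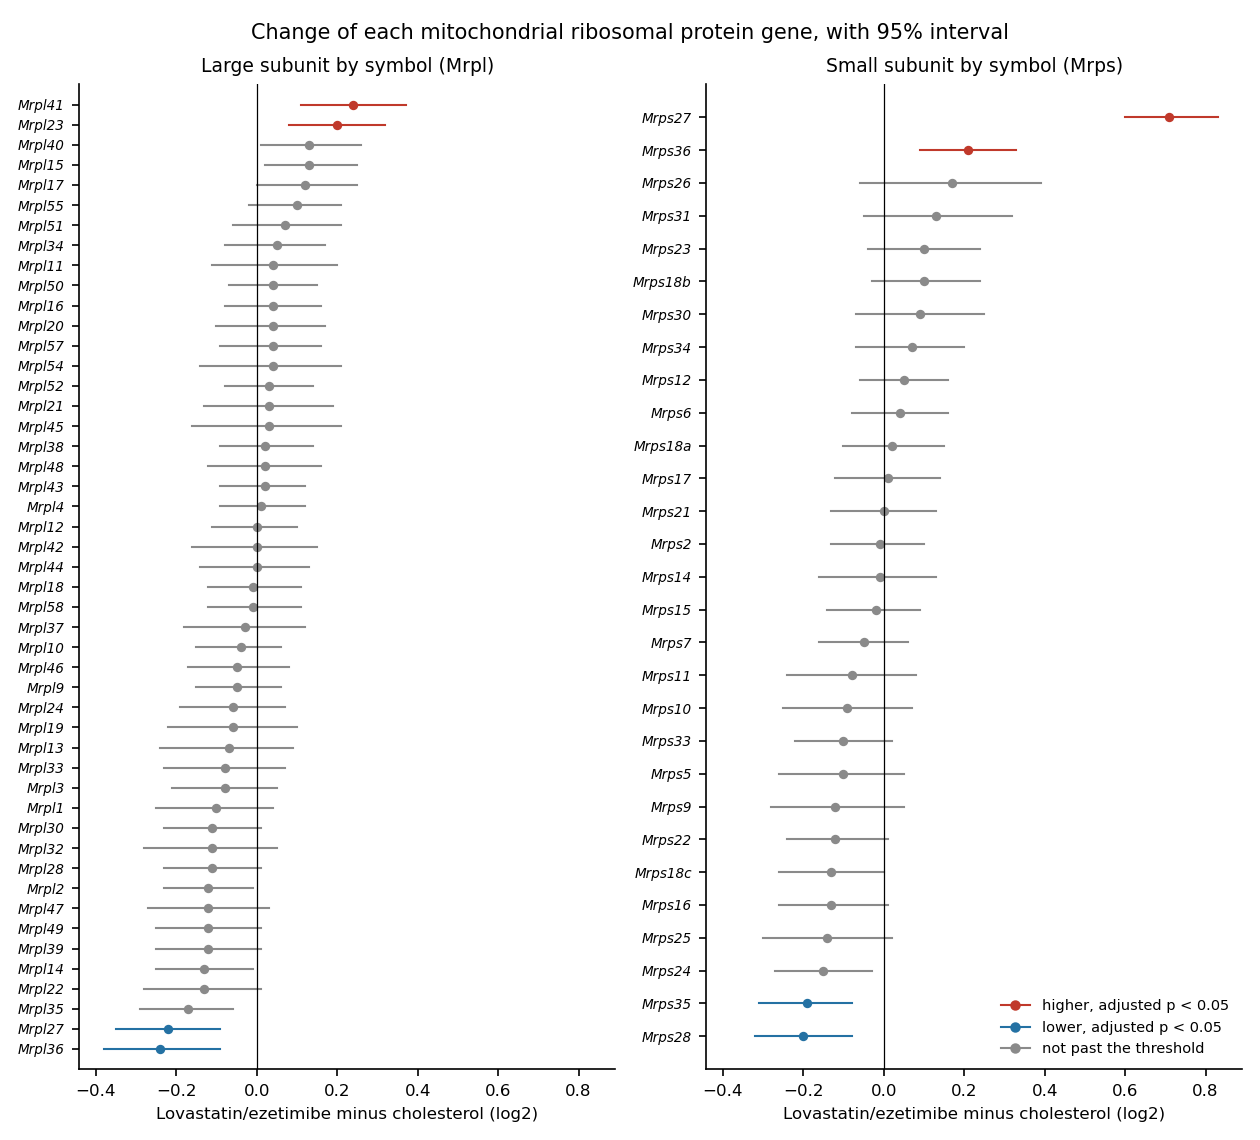
Difference between the diets for each of the 77 genes (x axis, lovastatin/ezetimibe minus cholesterol, log2), with large-subunit symbols on the left and small-subunit symbols on the right; points are limma estimates from 3 arrays per diet, bars are 95% intervals and colours mark the genes past the adjusted threshold. Mrps27 at 0.71 lies apart from the other 76 genes, which run from -0.24 to 0.24.

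Which members passed depended on the arrays and the scaling, except for Mrps27. Leaving out any array of CH1, CH2, CH3 or LE2 left 1 member past the threshold, leaving out LE1 left 2 (Mrps27 and Mrpl23) and leaving out LE3 left 6, while the share of all genes past it fell to between 7.47% and 9.37%. Quantile normalisation gave 1 member higher and 7 lower, and centring each array on its median gave 1 higher and 5 lower, in place of 4 and 4. Mrps27 was past the threshold in all 15 alternative analyses. The other 7 genes kept the sign of their difference in each of these analyses that tested them.

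**Figure D2:**
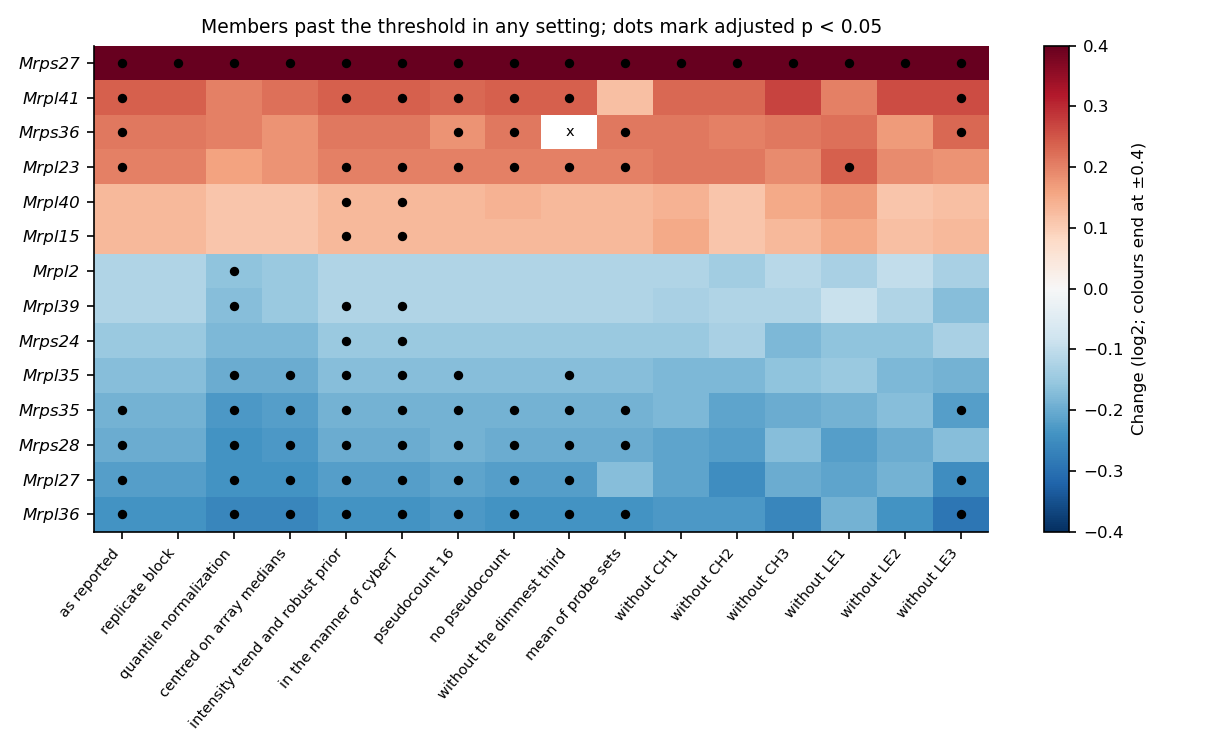
Difference between the diets (colour, log2) for the 14 members that were past the threshold in any analysis (rows), under the reported analysis and 15 alternatives (columns); dots mark an adjusted p below 0.05 and x marks a gene removed as dim. Mrps27 is dotted in every column, and the 4 genes that fell lose their dots under the replicate block and in all columns that leave out an array but the last, where Mrpl36, Mrpl27 and Mrps35 keep theirs.

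Mrps27 encodes a small-subunit protein of the mitochondria-specific kind, a pentatricopeptide repeat protein, that is, of a family that binds RNA through repeated helical units. Its log2 signal was 8.58, 8.56 and 8.63 on the cholesterol arrays and 9.28, 9.34 and 9.30 on the lovastatin/ezetimibe arrays. All 3 treated arrays lay well above all 3 cholesterol arrays, and the spread within each diet was small. The difference was 0.71 (SE 0.05, 95% interval 0.60 to 0.83), or 1.64-fold (limma adjusted p = 6.72e-05). Over the 15 alternatives it ranged from 0.67 to 0.74, with adjusted p-values from 2.42e-10 to 0.0021. With 3 arrays per diet, 0.1 is the smallest two-sided p that exact permutation allows, so the tests rest on limma's pooling of the spread over genes.

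The liver label was checked on 6 hepatocyte markers, all of them bright on every array. Of these 0 passed, and their summed intensity was 104029 to 106549 on the cholesterol arrays and 103682 to 107995 on the treated arrays. Of 7 markers of Kupffer cells and other macrophages all 7 rose, with a median of 0.47 and a summed intensity of 5201 to 5489 against 6840 to 7195, none of them near 0. Their part in the differences of Mrps27 and the other members was not tested. In bulk liver more cells of a type and more RNA per cell cannot be told apart. Markers of sinusoidal endothelium (6), stellate cells (6), cholangiocytes (4 of 5 measured) and lymphocytes (6) had 0 past the threshold. The deposited intensities had array medians between 158.1 and 162.9, and no pair of arrays shared more than 28 identical values.

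Mrps27 starts head to head with Ptcd2, another pentatricopeptide repeat gene, whose product takes part in the processing of mitochondrial cytochrome b RNA. In the RefSeq promoter table (assembly GRCm38.p6) their start sites lie 108 bases apart on opposite strands. Ptcd2 was looked at after its values were seen. It read 8.63, 8.56 and 8.64 on the cholesterol arrays and 8.86, 9.0 and 8.99 on the lovastatin/ezetimibe arrays, again without overlap. Its difference was 0.34 (SE 0.06, limma adjusted p = 0.0076), past the threshold in all 15 alternatives. The window shown here runs from 250 bases before the Mrps27 start to 50 after it, at chr13:99344536-99344835 on the plus strand, because it holds the start of both genes; capitals mark a match to the ETS (GABPA) motif, here on the opposite strand, and one to the YY1 motif.
Mrps27: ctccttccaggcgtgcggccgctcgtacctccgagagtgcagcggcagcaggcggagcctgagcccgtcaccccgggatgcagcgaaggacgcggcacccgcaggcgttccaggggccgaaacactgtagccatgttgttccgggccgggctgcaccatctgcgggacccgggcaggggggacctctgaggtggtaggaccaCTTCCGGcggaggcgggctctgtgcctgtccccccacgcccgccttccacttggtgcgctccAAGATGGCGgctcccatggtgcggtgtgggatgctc

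Of the 68 members with a window in that table, 26 have a gene starting within 1000 bases on the opposite strand, and the partner was measured for 24. In 15 of these 24 the member and its partner differed in the same direction. Mrpl46 and Mrps11 are each other's partner, so this same-direction pair is counted from both sides. The share in the same direction was not computed for head-to-head pairs of other genes. Mrps27 with Ptcd2 was the only pair in which both passed the threshold. Of the 24 partners 2 rose, Ptcd2 and Ppp1r10, and 1 fell, Tmem63b, beside 7.01% higher and 5.08% lower of all genes. Ppp1r10, next to Mrps18b, rose by 0.20 (SE 0.05, limma adjusted p = 0.045), beside a difference of 0.10 for Mrps18b that did not pass (adjusted p = 0.332). Mrpl14 lies next to Tmem63b, which encodes a mechanosensitive ion channel. Tmem63b fell by 0.43 (SE 0.05, limma adjusted p = 9.37e-04), beside a difference of -0.13 for Mrpl14 that did not pass (adjusted p = 0.179). Mrpl46 and Mrps11, a large- and a small-subunit gene whose starts lie 42 bases apart, differed by -0.05 (adjusted p = 0.676) and -0.08 (adjusted p = 0.551).

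Motifs of NRF1, GABPA and YY1, transcription factors known to control nuclear genes for mitochondrial proteins, stood in a larger share of member windows than of all windows. Windows of 300 bases were searched on both strands. GCGCANGCG, the NRF1 motif, was in 16 of 68 member windows (23.5%) and in 7.03% of the windows of 27025 genes. CCGGAAG, an ETS motif bound by GABPA, was in 25 (36.8%) beside 9.93%, and AAGATGGCG, the YY1 motif, in 8 (11.8%) beside 1.64%. TCACNCCAC, a form of the sterol regulatory element that SREBP factors bind, was in 0 of 68, beside 1.44%. For a motif this rare, 68 windows are too few to tell 0 from the share over all genes. The YY1 motif stood in the windows of Mrps27, which rose, and of Mrpl36, which fell; the latter, at chr13:73330759-73331058 on the plus strand, is shown for comparison, with the match (on the opposite strand) in capitals.
Mrpl36: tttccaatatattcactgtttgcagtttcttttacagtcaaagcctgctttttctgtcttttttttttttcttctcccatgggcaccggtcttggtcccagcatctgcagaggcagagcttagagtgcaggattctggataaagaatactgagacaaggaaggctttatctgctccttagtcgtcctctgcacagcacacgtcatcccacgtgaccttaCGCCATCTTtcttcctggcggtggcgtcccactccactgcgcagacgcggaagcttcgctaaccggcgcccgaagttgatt
The large and small subunits shared these motifs: NRF1 in 12 of 42 and 4 of 26 windows, ETS in 14 of 42 and 11 of 26, and YY1 in 4 of 42 and 4 of 26. A match of letters says nothing of binding in these livers, which was not measured.

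The other 3 genes that rose did so by much less than Mrps27. Mrpl41, a mitochondria-specific protein of the large subunit, read 8.48, 8.49 and 8.56 on the cholesterol arrays and 8.83, 8.72 and 8.71 on the lovastatin/ezetimibe arrays. The groups did not overlap, and the difference was 0.24 (SE 0.06, limma adjusted p = 0.03). Its second, dimmer probe set differed by 0.01 (SE 0.07, limma adjusted p = 0.96 over all probe sets), so its 2 probe sets disagreed, and the mean of both gave 0.12, not past the threshold. Mrpl23, the counterpart of a bacterial protein at the tunnel exit, read 10.80, 10.80 and 10.76 against 10.92, 11.01 and 11.04. All treated arrays were higher, by 0.20 on average (SE 0.05, limma adjusted p = 0.0435), and its second probe set gave the same difference of 0.20 (SE 0.05, adjusted p = 0.052). Mrps36 read 6.71, 6.68 and 6.70 against 6.89, 6.97 and 6.86, a difference of 0.21 (SE 0.05, limma adjusted p = 0.04) that its second probe set matched at 0.21 (SE 0.06, adjusted p = 0.0659). Its symbol is historical: the protein is a component of the 2-oxoglutarate dehydrogenase complex and not of the ribosome. Mrps36 had the lowest mean signal of the 77 members, below the median of every array. Each of these 3 calls was lost under quantile normalisation, under centring and under the replicate block, and stood in 1 of 6 analyses that left out an array. Mrps36 was also lost with a limma prior that follows intensity and resists outliers, and in a test in the manner of cyberT. It passed in 4 of the 14 alternatives that tested it, Mrpl41 in 6 of 15 and Mrpl23 in 7 of 15.

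The 4 genes that fell did so by 1.14-fold to 1.18-fold. Mrpl36, the counterpart of a very small bacterial large-subunit protein, read 10.16, 10.15 and 10.08 on the cholesterol arrays and 9.79, 9.90 and 9.99 on the lovastatin/ezetimibe arrays. The treated arrays were all lower but spread widely, and the difference was -0.24 (SE 0.06, limma adjusted p = 0.0479). Mrpl27, whose bacterial counterpart reaches towards the peptidyl transferase centre, read 10.63, 10.55 and 10.64 against 10.37, 10.34 and 10.46, a difference of -0.22 (SE 0.06, limma adjusted p = 0.0435). Its second probe set, at 9.24, 9.10 and 9.06 against 8.83, 9.05 and 9.16, overlapped between the diets and differed by -0.12 (SE 0.09, adjusted p = 0.498). In the small subunit, Mrps28, which has a distant bacterial counterpart, read 8.86, 8.84 and 8.93 against 8.72, 8.68 and 8.62, a difference of -0.20 (SE 0.05, limma adjusted p = 0.047). Mrps35, a mitochondria-specific protein, read 9.18, 9.13 and 9.15 against 8.96, 8.91 and 9.01, a difference of -0.19 (SE 0.05, limma adjusted p = 0.0468). In both genes every treated array was below every cholesterol array. All 4 calls lay just inside the threshold. They held under quantile normalisation and centring. All 4 were lost under the replicate block (limma adjusted p from 0.0637 for Mrpl27 to 0.112 for Mrps28), Mrpl27 was also lost with the mean of its probe sets (-0.17, adjusted p = 0.165), Mrps28 was past the threshold in 0 of 6 analyses that left out an array and the other 3 in 1 of 6 each.

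**Figure D3:**
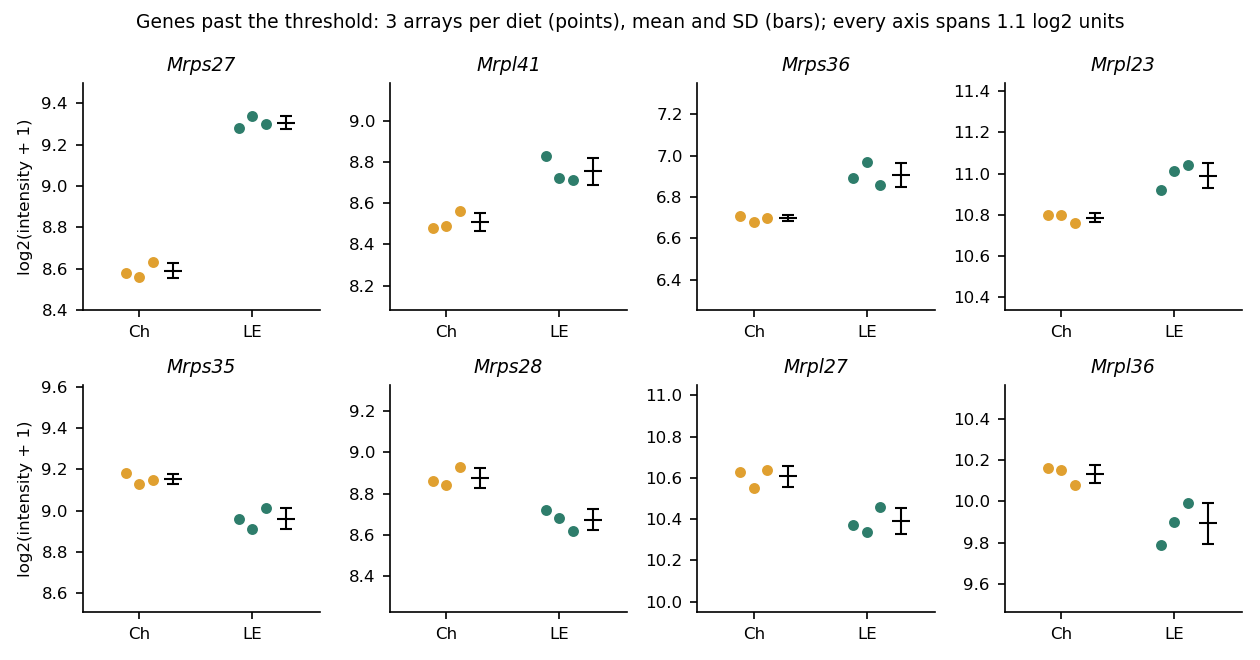
Log2(intensity + 1) of the 8 genes past the threshold on each of the 3 cholesterol (Ch) and 3 lovastatin/ezetimibe (LE) arrays (points), with the mean and SD beside them; every vertical axis spans the same range on its own scale. The diets do not overlap in any of the 8 genes, and the gap is widest for Mrps27.

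Sorted by symbol, large- and small-subunit genes did not part. Of the 48 large-subunit symbols 2 rose and 2 fell (8.33%), and of the 29 small-subunit symbols 2 rose and 2 fell (13.8%), beside 12.1% of all genes. The median difference was -0.005 for the large subunit and -0.013 for the small, beside -0.005 for all genes. The large-subunit median was 9.57, 9.55 and 9.59 on the cholesterol arrays and 9.48, 9.54 and 9.63 on the treated arrays, so the diets overlapped. The small-subunit median was 9.22, 9.17 and 9.17 against 9.28, 9.34 and 9.30. These small-subunit medians do not overlap, but on all 3 treated arrays the middle value was that of Mrps27 itself, while on the cholesterol arrays it was that of Mrps34 or Mrps6. Sorting by structure in place of symbol moves Mrps18a and Mrps30 to the large subunit and sets Mrps36 aside. It gave 2 higher and 2 lower of 50 large-subunit genes (8%), and 1 higher and 2 lower of 26 small-subunit genes (11.5%). The median difference was then -0.004 for the large subunit and -0.036 for the small. Of the genes, 54% and 65.4% lay below 0, beside 51.7% of all genes. This gap was wider than by symbol and was not tested.

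Most differences in the family were small. The middle 80% of members ran from -0.13 to 0.13, beside -0.18 to 0.19 for all genes. For 69 of 77 members (89.6%) the 95% interval lay wholly within 1.25-fold in either direction, 44 of 48 in the large subunit and 25 of 29 in the small, beside 71% of all genes.

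**Figure D4:**
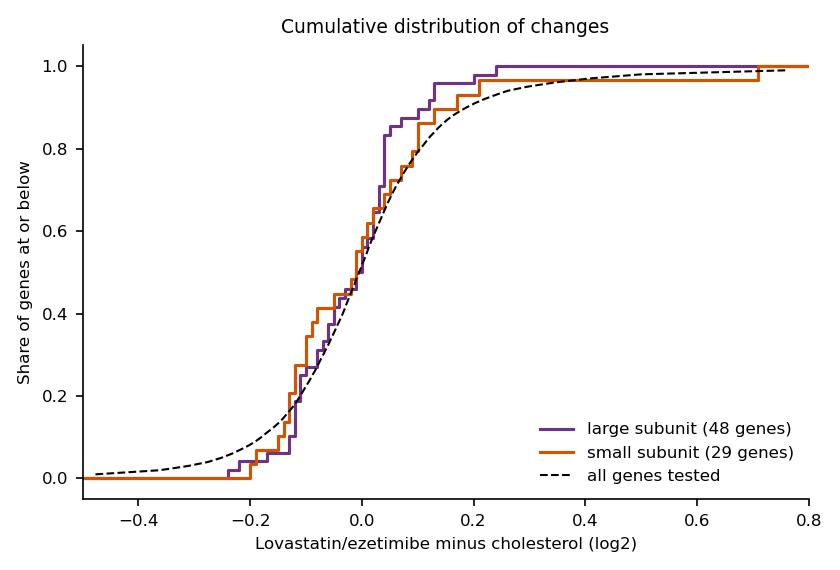
Cumulative share of genes (y axis) at or below each difference between the diets (x axis, log2) for the 48 large-subunit genes, the 29 small-subunit genes and all 19938 genes tested. Both subunit curves cross the middle near 0 (medians -0.005 and -0.013) and rise more steeply than the dashed curve of all genes, with Mrps27 at 0.71 as the last step of the small subunit.

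Members with a bacterial counterpart more often lay below 0 than the mitochondria-specific ones, in a comparison that was not tested. Of 46 members with a bacterial counterpart, 33 (71.7%) had a difference below 0, with a median of -0.06. Of 30 mitochondria-specific members, 11 (36.7%) had one, with a median of 0.03, beside 51.7% of all genes. The order was alike within each subunit: 20 of 30 and 7 of 18 were below 0 in the large, 13 of 16 and 4 of 12 in the small. Few of these genes changed, 1 higher and 3 lower among those with a bacterial counterpart (8.7%) and 2 higher and 1 lower among the mitochondria-specific (10%). The share of all genes was 12.1%. Quantile normalisation shifted both groups down, to medians of -0.09 and -0.01. With it 80.4% of the members with a bacterial counterpart and 53.3% of the mitochondria-specific ones lay below 0, beside 54.8% of all genes. The mitochondria-specific share was then only slightly below that of all genes. Centring gave medians of -0.08 and 0.00 and shares of 76.1% and 50%, beside 60.4%.

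Among functional regions, the 6 proteins around the decoding site and the mRNA path had a median of -0.09 and 0 passed the threshold. The share of all genes was 12.1%, and 6 proteins are too few to tell 0 from it. Mrps12, the counterpart of the bacterial protein that guards decoding accuracy, read 8.11, 8.08 and 8.02 against 8.11, 8.11 and 8.14, a difference of 0.05 (limma adjusted p = 0.597). Mrps24 differed by -0.15 (SE 0.05, adjusted p = 0.123), with all treated arrays lower. The 3 proteins of the stalk that recruits translation factors did not pass either: Mrpl10 differed by -0.04 (adjusted p = 0.644) and Mrpl11 by 0.04 (adjusted p = 0.765). Mrpl12, which is also known to bind mitochondrial RNA polymerase, read 10.65, 10.65 and 10.60 against 10.64, 10.62 and 10.64, a difference of 0.00 with a 95% interval from -0.11 to 0.10.

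Of 8 proteins along the exit tunnel 1 passed, Mrpl23 (12.5%), beside 12.1% of all genes. Mrpl44, whose fold is that of a ribonuclease, differed by 0.00 (adjusted p = 0.975) and Mrpl45, which anchors the ribosome to the inner membrane, by 0.03 (adjusted p = 0.894). Of 9 proteins of the central protuberance, the contact region between the subunits, 1 passed, Mrpl27 (11.1%), again near the share of all genes. Mrpl40 there read 10.47, 10.41 and 10.48 against 10.51, 10.63 and 10.62, without overlap, but its difference of 0.13 did not pass (SE 0.05, adjusted p = 0.177).

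The 3 paralogs Mrps18a, Mrps18b and Mrps18c occupy different places in the ribosome, the first in the large subunit. Mrps18a differed by 0.02 (adjusted p = 0.849), Mrps18b by 0.10 (adjusted p = 0.332) and Mrps18c by -0.13 (adjusted p = 0.208), and none passed. Mrps18c read 10.08 ± 0.02 on the cholesterol arrays and 9.95 ± 0.08 on the treated arrays (SD, n = 3 each), lower on every treated array. Of the genes next in size, Mrpl35 differed by -0.17 (SE 0.05, adjusted p = 0.0591) and Mrps26 by 0.17 (SE 0.10, adjusted p = 0.346), the latter with overlapping diets. Mrps30, also known as a programmed cell death protein, differed by 0.09 (adjusted p = 0.509). The brightest probe set of each subunit was that of Mrpl39 (-0.12, adjusted p = 0.221) and Mrps21 (0.00, adjusted p = 0.99), and the dimmest of the large subunit that of Mrpl21 (0.03, adjusted p = 0.855). Signals of different probe sets are not comparable as transcript levels.

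In the lists of genes that build, feed and regulate the mitochondrial ribosome most members did not pass, and a few differed by more than any ribosomal protein but Mrps27. Of 24 assembly factors 1 rose and 1 fell, with a median of 0.02, beside 7.01% higher and 5.08% lower of all genes. Mpv17l2, an inner membrane protein needed for assembly of the mitochondrial ribosome, read 9.72, 9.72 and 9.73 on the cholesterol arrays and 10.26, 10.34 and 10.32 on the lovastatin/ezetimibe arrays. It rose 1.5-fold (0.58, SE 0.05, limma adjusted p = 1.89e-04), past the threshold in all 15 alternatives. Ngrn, which acts on the large ribosomal RNA, fell by 0.17 (SE 0.05, adjusted p = 0.046), but passed in 8 of 15. The count of assembly factors that fell was 4 with quantile normalisation, 3 with a limma prior that follows intensity and resists outliers (the trended robust prior), in the manner of cyberT (which steadies each variance with those of genes of like intensity) and without the dimmest genes, 2 with centring and with a pseudocount of 16, and 0 under the replicate block and in each analysis that left out an array.

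Of 14 measured translation and mRNA-handling factors 0 rose and 1 fell, beside 7.01% higher and 5.08% lower of all genes. The factor that fell was Slirp, which stabilises mitochondrial mRNAs together with Lrpprc. It read 10.06, 10.04 and 10.08 against 9.83, 9.80 and 9.67, a fall of 0.29 (SE 0.06, limma adjusted p = 0.0142) that passed in 14 of 15 alternatives, the exception being the analysis without CH1 (adjusted p = 0.0543). The count of these factors that fell was 3 with quantile normalisation, the trended robust prior and without the dimmest genes, 4 in the manner of cyberT and 2 with centring. Of 10 measured genes of mitochondrial transcription and DNA maintenance 0 rose and 1 fell, beside 7.01% higher and 5.08% lower of all genes. The gene that fell was Polg2, the accessory subunit of the mitochondrial DNA polymerase, by 0.22 (SE 0.05, limma adjusted p = 0.0318, past in 9 of 15). Of the other mitoribosomal proteins without an Mrp symbol 4 were measured and 0 passed, beside 12.1% of all genes. Among them Chchd1 had the smallest p, with a difference of -0.19 (limma adjusted p = 0.156). With the trended robust prior and in the manner of cyberT 2 of these 4 were lower.

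Protein import, by which the members enter mitochondria, had 1 gene higher and 4 lower of 28, beside 7.01% higher and 5.08% lower of all genes. The lower count was 2 under the replicate block and without CH1, CH3, LE1 or LE2. Dnajc19, a co-chaperone of the import motor, read 10.25, 10.09 and 10.23 against 9.76, 9.79 and 9.81 and fell by 0.40 (SE 0.06, limma adjusted p = 0.0036). Timm9, a chaperone of the intermembrane space, fell by 0.33 (SE 0.06, adjusted p = 0.0078), and Timm17b, a subunit of the inner membrane translocase, rose by 0.27 (SE 0.05, adjusted p = 0.0080). These 3 passed in all 15 alternatives.

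The regulators of mitochondrial biogenesis held the largest differences of these lists. Of 12, 2 were higher and 1 lower, beside 7.01% higher and 5.08% lower of all genes. The lower count was 4 with quantile normalisation, 3 with the trended robust prior, in the manner of cyberT and without the dimmest genes, and 2 with centring and with a pseudocount of 16. Ppargc1a, the coactivator PGC-1alpha known for raising mitochondrial gene expression in fasting and cold, read 8.71, 8.62 and 8.74 on the cholesterol arrays and 9.56, 9.62 and 9.78 on the treated arrays. It rose 1.95-fold (0.97, SE 0.07, limma adjusted p = 8.68e-05). Ppargc1b, its relative PGC-1beta, read 8.78, 8.69 and 8.75 against 8.18, 8.09 and 8.19 and fell by 0.59 (SE 0.05, adjusted p = 3.24e-04). Both passed in all 15 alternatives, in opposite directions. Myc, a growth-promoting transcription factor, rose by 0.34 (SE 0.07, adjusted p = 0.0135; past in 13 of 15, the exceptions being the analyses without LE2, at 0.0587, and without LE3, at 0.0531). The factors whose motifs stood in the member windows did not pass: Nrf1 differed by -0.05 (adjusted p = 0.74), Gabpa by -0.13 (adjusted p = 0.276) and Yy1 by -0.09 (adjusted p = 0.306), the last with every treated array lower.

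Of genes of mitochondrial DNA itself 2 of 15 were measured. ND3, a complex I subunit, read 13.63, 13.65 and 13.67 against 13.45, 13.54 and 13.38 (-0.19, limma adjusted p = 0.066), and COX2, a complex IV subunit, differed by -0.10 (adjusted p = 0.319). Neither passed, though every treated array was lower in both. Both were lower past the threshold with the trended robust prior and in the manner of cyberT, and ND3 also with a pseudocount of 16 and without the dimmest genes. Of 55 measured proteins of the cytosolic ribosome 0 passed, beside 12.1% of all genes. Their median was -0.04, with 3 at an unadjusted p below 0.05, and Rpsa had the smallest p (-0.14, adjusted p = 0.148). With the trended robust prior and in the manner of cyberT, 2 of the 55 were higher and 5 lower.

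**Figure D5:**
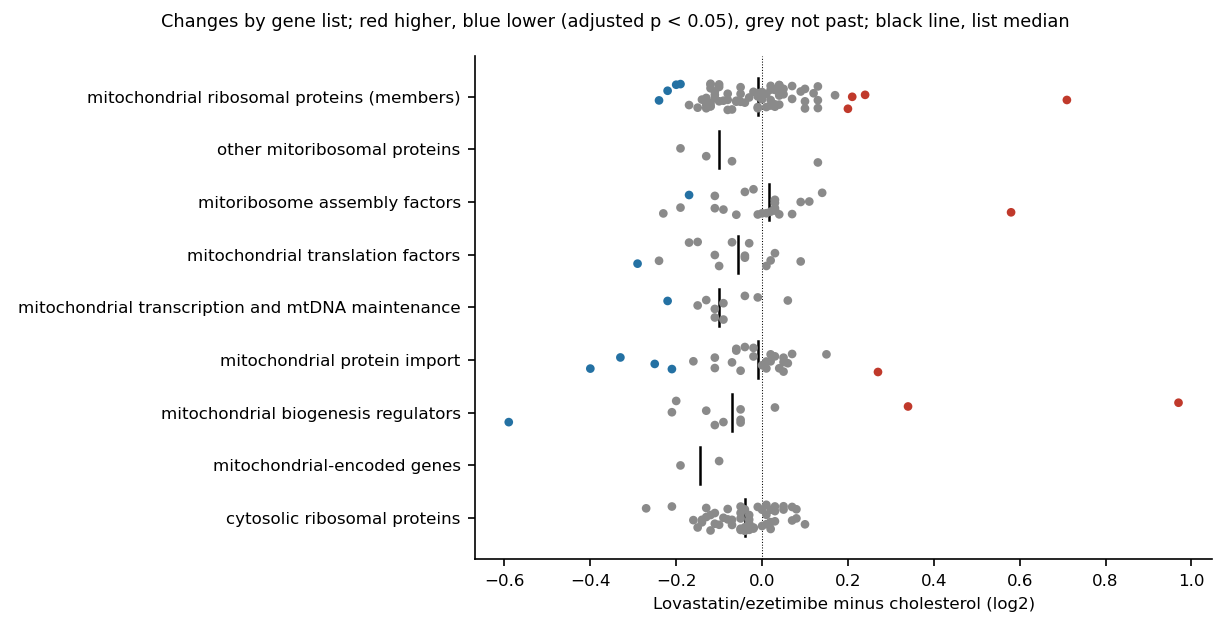
Difference between the diets (x axis, log2) for each measured gene of the 77 members and of 8 related lists (rows, points spread vertically for visibility), coloured by call, with the median of each list as a black line. Every median lies between -0.15 and 0.02, and the points far from 0 are Mrps27, Mpv17l2, Ppargc1a and Ppargc1b.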

How the data were processed

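Liver RNA was measured on 6 arrays, 3 per diet, grouped by the sample titles. The authors deposited probe set intensities on a linear scale; Trizol extraction is stated per the labels' protocols, and Partek Genomics Suite with cyberT is what the design text cites for differential expression. How background was corrected and probes were normalised and summarised is not given in the sources used here. Normalisation could set small differences such as those reported. All 6 arrays were used; a chow-fed group that the treatment protocol describes beside these 2 diets is not analysed here.

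Of 35556 probe sets, 21789 carried 1 gene symbol in GEO's platform annotation, 1621 several and 12146 none; 21698 were matched to RefSeq by gene identifier. Per gene the probe set with the highest mean over all arrays was used, which gave 19938 genes. Values were taken as log2(intensity + 1) and tested with limma 3.58.1 (lmFit, eBayes, two-sided) in R 4.3.3, with Benjamini-Hochberg adjustment and a threshold of 0.05; every adjusted p in the text is limma's. The number of arrays limits the precision. Tables and plots used Python 3.11.15, pandas 2.3.3 and matplotlib 3.10.9. The code was tested on simulated data. Motif and promoter windows came from RefSeq's GRCm38.p6.

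Members and lists were chosen with earlier results of these data known. Named were all members past the threshold, the 3 largest differences in each direction and subunit, the brightest and dimmest member of each subunit, a set of structurally known members, and in each related list up to 3 members past the threshold or else the one with the smallest p. Ptcd2, Tmem63b, Ppp1r10, Mrpl46, Mrps11, Nrf1, Gabpa and Yy1 were added after their values were seen. Alternatives were a replicate block, quantile normalisation, centring, a trended robust prior, a test in the manner of cyberT, pseudocounts of 16 and none, removal of the 33.3% of genes with the lowest mean, averaging all probe sets of a gene and leaving out each array.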

Additional observations from a re-analysis of the deposited data

How the results depend on the processing

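Counts of members past the threshold moved with most choices. With 8 as reported, leaving out 1 array gave 1 to 6, 1 to 3 of them higher (4 as reported) and 0 to 3 lower (4 as reported), with 0 to 3 in the large subunit and 1 to 3 in the small (4 each as reported). The arrays' replicate numbers did not pair them (correlations of same-numbered arrays -0.021, -0.097 and 0.160). With the replicate number as a block 1 member was past the threshold, 1 higher and 0 lower, 0 in the large and 1 in the small subunit. Quantile normalisation gave 1 higher and 7 lower and moved the small-subunit median from -0.01 to -0.06, and centring gave 1 higher. The intensity trend with robust prior and the test in the manner of cyberT each gave 7 lower and 8 in the large subunit, and the mean of probe sets gave 2 in the large subunit. No difference of a named member or named list gene that was past the threshold changed sign. The cause of these shifts was not tested beyond the smaller number of arrays when 1 is left out.

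Precision limits the reading: differences near 0.2 lay at the edge of what 3 arrays per diet called, the standard errors of members being 0.04 to 0.10. A member that did not pass is not shown to be equal between the diets beyond its interval.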
